A study of Mus musculus with 2 samples.

Results

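The genes described here are 10 members of the Notch pathway, taken by symbol from the feature table of both count matrices: the receptors Notch1, Notch2, Notch3 and Notch4, the ligands Jag1, Jag2, Dll1 and Dll4, and the target genes Hes1 and Hey1. They are 10 of 32285 genes in the table, and each symbol matched 1 row. The data are single-cell RNA libraries of dorsal skin from male C3H/HeN mice, whose treatment began at 7 weeks of age after the back was shaved and whose skin was taken at 9 weeks. In the vehicle control group (Con) the mice received the carrier, and in the androgenetic alopecia model group (TP) they received testosterone propionate under the skin at 0.5 mg/day. Cells of 15 mice per group were pooled into 1 library, so there is no replicate of either condition and no spread between animals can be given. The TP + Ab group of the study is not analysed here. Every interval in the text covers counting error within these libraries alone, no p-value is given, and a difference between Con and TP is a difference between 2 libraries.

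Notch receptors sit in the membrane of a cell and are switched on by Jagged or Delta-like ligands on a neighbouring cell. Cleavage by ADAM proteases and by gamma-secretase then frees the intracellular part of the receptor, which joins the DNA-binding protein RBPJ and Mastermind-like coactivators in the nucleus and turns on genes of repressors such as Hes1 and Hey1. In skin the pathway is known for the commitment of keratinocytes leaving the basal layer and for the differentiation of the inner root sheath and hair shaft, while in vessels Dll4 and Notch4 mark endothelium and Notch3 marks mural cells.

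Promoter windows are shown for 4 members whose levels set cell classes apart in the results, a receptor and ligand pair of the hair follicle (Notch1, Jag1) and a pair of the endothelium (Notch4, Dll4). They are the 250 bases before an annotated start in RefSeq and are written 5′ to 3′ on the strand of the gene. The build is GRCm38.p6, the patch release of the mm10 build to which the reads were mapped. The last bases of the Notch4 window lie inside the annotated gene, whose outermost start is at 34564286. Windows were matched for 8 of the 10 members, all except Hes1 and Hey1. Capitals mark the GC box GGGCGG or its reverse complement CCGCCC. The Notch1 window is chr2:26503823-26504072 (minus strand), the Jag1 window chr2:137116521-137116770 (minus strand), the Notch4 window chr17:34564045-34564294 (plus strand) and the Dll4 window chr2:119325534-119325783 (plus strand).
Notch1: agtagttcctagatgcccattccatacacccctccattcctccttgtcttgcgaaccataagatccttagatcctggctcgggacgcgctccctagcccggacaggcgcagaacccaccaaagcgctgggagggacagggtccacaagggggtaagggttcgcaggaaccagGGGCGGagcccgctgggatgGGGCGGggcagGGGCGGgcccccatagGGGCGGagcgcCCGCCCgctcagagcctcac
Jag1: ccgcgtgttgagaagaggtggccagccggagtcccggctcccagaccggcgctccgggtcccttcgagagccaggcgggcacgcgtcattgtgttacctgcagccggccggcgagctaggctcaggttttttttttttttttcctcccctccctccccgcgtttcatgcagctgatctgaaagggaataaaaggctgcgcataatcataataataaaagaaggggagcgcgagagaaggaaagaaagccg
Notch4: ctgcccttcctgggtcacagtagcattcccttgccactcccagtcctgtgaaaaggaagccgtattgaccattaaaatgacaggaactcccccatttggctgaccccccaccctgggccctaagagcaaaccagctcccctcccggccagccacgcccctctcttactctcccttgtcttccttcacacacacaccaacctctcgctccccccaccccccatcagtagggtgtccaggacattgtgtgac
Dll4: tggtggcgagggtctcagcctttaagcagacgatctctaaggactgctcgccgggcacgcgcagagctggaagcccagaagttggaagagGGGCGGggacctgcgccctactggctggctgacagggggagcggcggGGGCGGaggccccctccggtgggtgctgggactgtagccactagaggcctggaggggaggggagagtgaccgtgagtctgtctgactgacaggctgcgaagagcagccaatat

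The GC box occurred 5 times in the Notch1 window, 2 times in the Dll4 window and not at all in those of Jag1 and Notch4, and 32.74% of all 32851 windows of this length held it on either strand. G and C made up 66% of the Notch1 window, 57.2% of the Jag1 window, 58.4% of the Notch4 window and 65.6% of the Dll4 window, against a median of 52.4% over all windows. The core letters read by RBPJ, TGGGAA on either strand, were in none of the 9 windows of the 8 members (21.59% of all windows hold them), and the E box CACGTG was in none of them either (6.02% of all windows). These matches describe the letters of the windows and say nothing of binding.

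After filtering, 39076 cells of Con with 108045098 UMIs (unique molecular identifiers, each counted as 1 RNA molecule) and 18542 cells of TP with 137079252 UMIs remained, and the median per cell was 2062 UMIs in Con and 5017 in TP. The libraries shared 303 cell barcodes of the 45709 and 25931 deposited. Clustering without the members and without 41 other Notch pathway genes gave 33 clusters, of which 25 could be named from marker genes as 15 cell classes. The 8 unnamed clusters held 33.3% of the Con cells and 15.1% of the TP cells. Composition differed strongly between the libraries: the hair shaft cortex-like class gave 10.5% of the UMIs in Con and 2.40% in TP, the inner root sheath (IRS)-like class 14.2% and 7.03%, and the suprabasal interfollicular epidermis (IFE suprabasal)-like class 11.6% and 35.0%. Levels are given as counts per 1000000 UMIs of the same cells (CPM), and because the libraries count 3′ ends they are compared within a gene and not between genes.

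Notch1, the receptor whose loss in mouse skin disturbs hair follicles, was highest in the cortex-like, matrix-like and IRS-like classes of the hair follicle in both libraries. Its level was 602 CPM in Con and 562 CPM in TP in the cortex-like class. The class of inner bulge germinative layer or matrix stood at 491 and 411 CPM, and the IRS-like class at 418 and 390 CPM. The values of these classes in the 2 libraries did not overlap with those of the next class, the endothelial (EC)-like class at 209 and 169 CPM, although matrix-like and IRS-like cells overlapped each other. Medulla and companion-like cells, also of the follicle, stood near the bottom of the order, at 102 and 37.6 CPM. In the epidermis Notch1 was at 145 CPM in Con and 85.1 CPM in TP in IFE basal-like cells and at 134 and 70.9 CPM in IFE suprabasal-like cells. After thinning to 1000 UMIs per cell, 46.0% of Con and 46.9% of TP cortex-like cells held a Notch1 UMI, against 10.4% and 3.49% of dermal fibroblast (DF)-like cells. Without thinning the shares were 73.6% and 88.2%, against 16.8% and 13.6%.

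Notch2, a receptor also known from B cells and other leukocytes, was highest in IRS-like cells, at 270 CPM in Con and 350 CPM in TP. The myeloid-like class came next at 250 and 228 CPM, from 49 and 276 UMIs, and although its values in the 2 libraries lay below both of the IRS-like class, its counting interval in Con (185 to 331 CPM) included the IRS-like level. The levels of the other named classes ran from 167 CPM in lymphocyte-like cells of TP down to 37.6 CPM in melanocyte-like cells of TP. In Con, 22.4% of the thinned IRS-like cells held a Notch2 UMI, and in TP 31.9% did (42.5% and 74.3% without thinning).

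Notch3, the receptor of vascular mural cells, stood far above its other levels in smooth muscle and pericyte (SMC)-like cells, at 652 CPM in Con (118 UMIs in 63 cells) and 880 CPM in TP (454 UMIs in 99 cells). That was 4.49 times the mean of the next class, the IRS-like cells at 178 and 163 CPM. Of the thinned SMC-like cells, 56.9% held a Notch3 UMI in Con and 50.5% in TP, while 0 of 66 thinned myeloid-like cells did in Con, which at that depth allows a share of up to 4.55%, and 0 of 225 in TP, which allows up to 1.33%. Without thinning the shares were 68.3% and 80.8% of SMC-like and 5.26% and 3.42% of myeloid-like cells. Suprabasal epidermis held more Notch3 than basal epidermis, at 147 and 119 CPM against 30.3 and 24.1 CPM. Because the IFE suprabasal-like class was so large in TP, it gave 49.0% of all Notch3 UMIs there and 16.0% in Con.

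Notch4, a receptor known from endothelium, was sparse, with 490 UMIs in Con and 215 in TP over all kept cells. It was highest in EC-like cells, at 40.0 CPM in Con (14 UMIs) and 33.3 CPM in TP (23 UMIs). The dermal papilla (DPC)-like class, the mesenchymal cells at the base of the follicle, came next at 25.7 CPM (295 UMIs) and 12.1 CPM (101 UMIs), and gave 60.2% of all Notch4 UMIs in Con and 47.0% in TP. The third class in order was SMC-like, from 2 UMIs in Con and 0 in TP, and in the classes after it no level exceeded 2.77 CPM in either library.

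**Figure D1:**
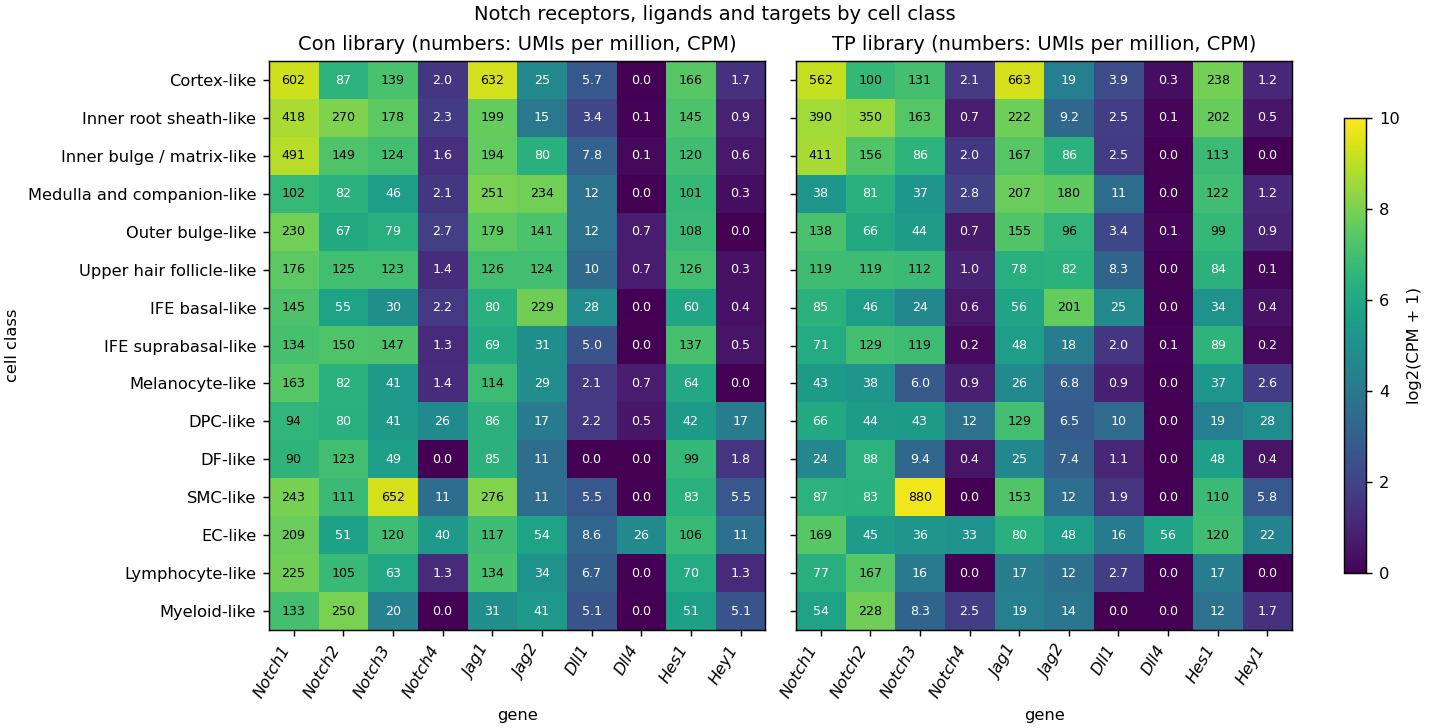
Level of each of the 10 genes (columns) in the 15 named cell classes (rows) of the Con and the TP library, printed in CPM and coloured by log2(CPM + 1). Notch1 and Jag1 are highest in cortex-like cells (602 and 562 CPM, and 632 and 663 CPM), Notch3 in SMC-like cells, Dll4 in EC-like cells and Hey1 in DPC-like cells, by the mean of the 2 libraries.

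Jag1, the Jagged ligand active in many skin cells, peaked in the same class as Notch1. Cortex-like cells held 632 CPM in Con and 663 CPM in TP, 2.82 times the mean of the next class, the medulla and companion-like cells at 251 and 207 CPM. SMC-like cells at 276 and 153 CPM and IRS-like cells at 199 and 222 CPM overlapped with that second class in level. Of the thinned cortex-like cells, 48.0% held a Jag1 UMI in Con and 52.2% in TP. In DF-like cells, the dermal fibroblasts, the shares were 7.36% and 2.33%.

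Jag2, the second Jagged ligand, had another distribution. It was highest in IFE basal-like cells, at 229 CPM in Con and 201 CPM in TP, and in medulla and companion-like cells, at 234 and 180 CPM, which overlapped. Outer bulge-like cells, the outer layer of the stem cell niche, held 141 and 95.8 CPM, and upper hair follicle-like cells 124 and 81.6 CPM. Suprabasal epidermis held 30.6 and 17.9 CPM, the opposite order to that of Notch3 across the layers of the epidermis. After thinning, 21.4% of Con and 20.006% of TP IFE basal-like cells held a Jag2 UMI, against 0 of 163 DF-like cells in Con, which at that depth allows a share of up to 1.84%, and 0.78% of them in TP. Without thinning the shares were 39.9% and 53.5% of IFE basal-like and 2.88% and 5.40% of DF-like cells.

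Dll1, a Delta-like ligand, was likewise highest in IFE basal-like cells, at 27.8 CPM in Con (205 UMIs) and 25.4 CPM in TP (388 UMIs), 2.17 times the mean of the next class. Dll4, the Delta-like ligand of sprouting vessels, was sparse and highest in EC-like cells. It had 24 UMIs in Con and 45 in TP, of which 9 (37.5%) and 39 (86.7%) lay in the EC-like class, at 25.7 and 56.4 CPM. Among the other named classes with a Dll4 UMI no level exceeded 0.712 CPM, and 6 of the Con UMIs were in DPC-like cells. Classes without one were in part too small to show such a level: a count of 0 allows up to 16.6 CPM in SMC-like, 15.3 CPM in myeloid-like and 5.43 CPM in DF-like cells of Con. A finer clustering divided the EC-like cells into a group led by Ccl21a and Reln, which are known from lymphatic vessels, and a group led by Flt1 and Mecom. Dll4 was in both, at 21.6 CPM in Con and 48.2 CPM in TP in the first (3 and 24 UMIs) and at 28.6 and 77.5 CPM in the second (6 and 15 UMIs). Notch4 lay in the Flt1-led group, with 13 UMIs in Con and 23 in TP, against 1 and 0 in the group led by Ccl21a.

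Hes1, the repressor gene that many Notch signals turn on, was broad. Its highest classes were cortex-like cells at 166 CPM in Con and 238 CPM in TP and IRS-like cells at 145 and 202 CPM, which overlapped, and 13 of the 14 pairs of neighbouring classes in its order overlapped between the libraries. Hey1, a related repressor gene, was narrow. DPC-like cells held 17.1 CPM in Con (197 UMIs) and 28.4 CPM in TP (237 UMIs), and gave 73.2% and 73.6% of all its UMIs. EC-like cells, at 11.4 and 21.7 CPM from 4 and 15 UMIs, overlapped with them, and SMC-like cells followed at 5.53 and 5.81 CPM from 1 and 3 UMIs.

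Over the 30 levels of a gene (15 classes in 2 libraries), the profiles of the members were set side by side as Pearson correlations of their log levels, which describe shared distribution and come with no p-value since the points share libraries and depth. The most alike pairs were Jag1 and Hes1 (r = 0.74), Jag2 and Dll1 (0.72), Notch1 and Jag1 (0.71), Notch4 and Hey1 (0.70) and Notch4 and Dll4 (0.69). Among all other genes, those most like Dll4 were Emcn (0.98), Gpihbp1 (0.96) and Cdh5 (0.96), all known from endothelium. Those most like Jag2 were Rbbp8 (0.92), Fermt1 (0.88) and Itgb4 (0.86), the last 2 of which encode parts of the attachment of basal keratinocytes. Cdkal1 (0.89) was most like Notch1, Blnk (0.78) most like Notch2, Actn4 (0.87) most like Notch3 and Tacr1 (0.85) most like Notch4. Dlg1 (0.89) was most like Jag1, Tspan9 (0.74) most like Dll1, Afap1l2 (0.89) most like Hes1 and Prkar1b (0.85) most like Hey1.

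Over all kept cells, the members were mostly lower in CPM in TP than in Con, as most genes were. Notch1 had 31650 UMIs in Con and 17418 in TP, or 293 and 127 CPM, a TP over Con ratio of 0.434 (95% interval 0.426 to 0.442). Jag1 was at 186 and 98.5 CPM (20117 and 13507 UMIs), a ratio of 0.529 (0.518 to 0.541). Hes1 was at 115 and 87.5 CPM (ratio 0.760, 0.741 to 0.780), and Notch3 at 106 and 84.9 CPM (0.7996, 0.779 to 0.821). Notch4 was at 4.54 and 1.57 CPM, a ratio of 0.346 (0.293 to 0.407).

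Notch2 was at 122 CPM in Con and 113 CPM in TP (ratio 0.924), Jag2 at 69.9 and 61.7 CPM (0.883), Dll1 at 7.497 and 6.74 CPM (0.899) and Hey1 at 2.49 and 2.35 CPM (0.943, interval 0.79996 to 1.11), and these 4 ratios turned to 1.10, 1.05, 1.07 and 1.13 when libraries were scaled by TMM factors in place of their totals. TMM raised every ratio by the same factor, since the TP over Con factor was 0.837. Dll4 was at 0.222 and 0.328 CPM, a ratio of 1.48 whose interval (0.881 to 2.54) included 1. On these few UMIs the Dll4 ratio was 1.98 with doublets kept, 2.09 with all deposited barcodes and 2.85 with cells thinned to 1000 UMIs, against 1.07 and 1.05 with the cluster shares of Con and of TP. The median ratio of the 10 members was 0.840, and over the 17583 genes that had 50 UMIs or more it was 0.846, so the members as a list lay where genes in general lay.

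Counted by their intervals, 8 of the 10 members were lower in TP and 0 higher, against 56.1% of all 17583 genes lower and 27.5% higher. These counts are set by the library totals. With TMM factors 5 members (Notch1, Notch3, Notch4, Jag1 and Hes1) were lower and 3 (Notch2, Jag2 and Dll4) higher, against 38.4% and 42.1% of all genes. The study called genes at an absolute log2 fold change of at least 1, and that threshold was applied here to log2(UMIs per 10000 + 0.1). With it 1 member (Notch1) was lower in TP and 0 were higher, against 0.808% and 1.68% of all genes. The offset equals 10 CPM and understates the fold of a sparse gene. Without it 2 members (Notch1 and Notch4) were at least 2-fold lower and 0 higher, against 10.6% and 8.01% of all genes. The Notch1 call was lost with another makeup or scaling of the libraries: its ratio was 0.807 when each cluster was weighted by its Con share in both libraries, 0.666 with the TP shares and 0.518 with TMM factors, and no member passed the rule with the offset under any of these. Few genes of any kind passed it with fixed cluster shares. With the Con shares 0.0227% of all genes were lower and 0.301% higher, and with the TP shares 0.0227% and 0.279%. Without the offset Notch4 passed with TMM factors (0.413) but not with the Con shares (0.588) or the TP shares (0.524). The Jag1 ratio also came closer to 1, at 0.899 with the Con shares and 0.8002 with the TP shares.

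**Figure D2:**
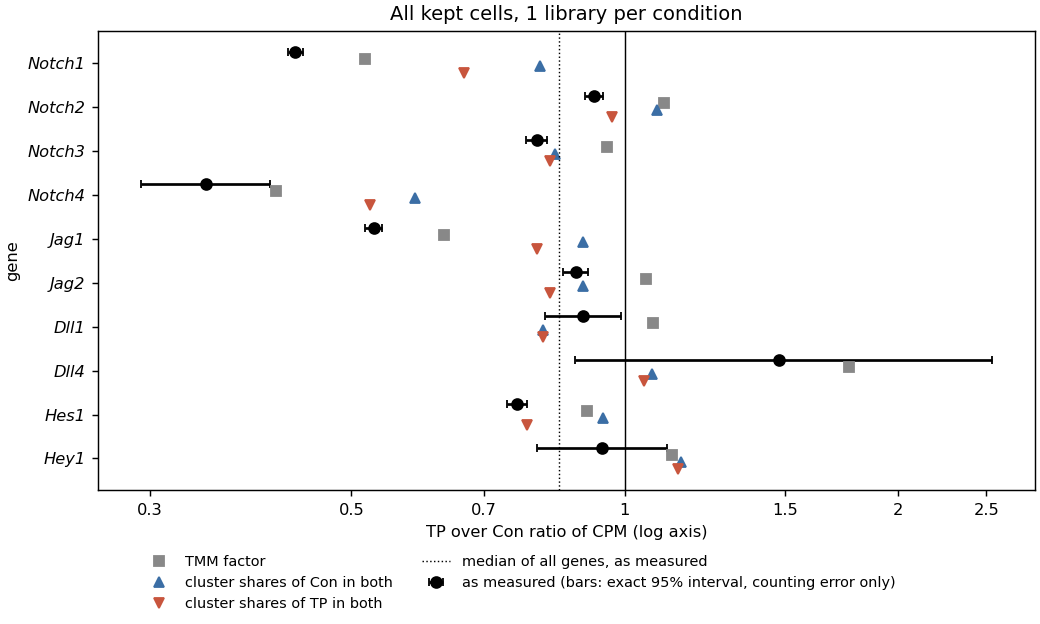
TP over Con ratio of each gene over all kept cells (log scale), scaled by library totals with its exact conditional 95% interval for counting error, and beside it the ratio with TMM factors and with the cluster shares of Con or of TP used in both libraries. Notch1 moves from 0.434 to 0.807 when the Con shares are used, and the median ratio of all genes with at least 50 UMIs is 0.846.

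Several classes rich in Notch1 and Jag1 held a smaller part of the TP library: the share of its UMIs was 10.5% in Con and 2.40% in TP for cortex-like and 14.2% and 7.03% for IRS-like cells. The outer bulge-like class went the other way, with 1.35% and 5.52%, as did the small EC-like and SMC-like classes. Cortex-like cells gave 21.7% of the Notch1 UMIs in Con and 10.6% in TP, and 35.8% and 16.2% of the Jag1 UMIs. An unnamed cluster led by Gask1b, Creb5 and Fzd5 had 3983 cells in Con and 229 in TP, a Notch1 level of 503 and 548 CPM, and 11.9% and 2.65% of the Notch1 UMIs. The next largest unnamed cluster in Con, led by Hbb-bs and Hba-a1 (3779 and 266 cells), had Notch1 at 360 and 174 CPM (0.484, 0.341 to 0.668). All unnamed cells together, the Gask1b cluster included, had it at 295 and 131 CPM (0.444, 0.426 to 0.462). They gave 29.8% and 17.2% of its UMIs, and their mix of clusters differed between the libraries. Within the cortex-like class Notch1 differed little (ratio 0.933, 0.886 to 0.983), as did Jag1 (1.05, 1.00 to 1.10). The IRS-like class had Notch1 at a ratio of 0.931 (0.895 to 0.970) and Jag1 at 1.11 (1.05 to 1.18). The side of 1 on which Notch1 fell in these 2 classes was not stable: its ratio was 1.04 with TMM factors within the IRS-like class and 1.038 with thinned cells in the cortex-like class. In the matrix-like class Notch1 was lower in TP, at 491 and 411 CPM (0.837, 0.779 to 0.898). It stayed lower there with TMM factors within the class (0.887) and with thinned cells (0.813). Jag1 in that class had a ratio of 0.858 (0.766 to 0.960).

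**Figure D3:**
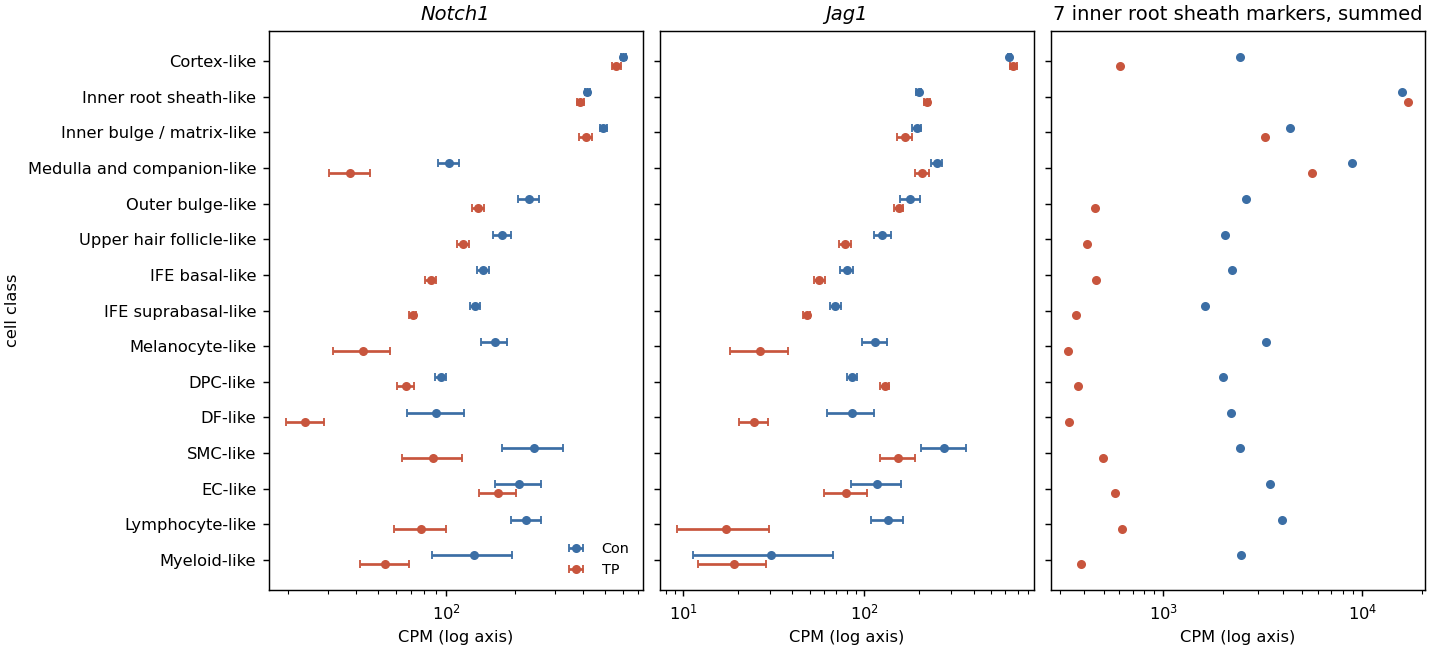
Levels of Notch1 (left) and Jag1 (middle) and the summed level of 7 IRS marker genes (right) in Con and TP in each class, all in CPM on log axes, with exact Poisson 95% intervals for counting error on the genes. In the 7 classes outside the epithelium the IRS marker sum lies between 1983 and 3959 CPM in Con and between 330 and 619 CPM in TP.

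In cortex-like and IRS-like cells the target Hes1 was higher in TP while the Notch1 ratio was near 1. Medulla and companion-like cells also had higher Hes1, but Notch1 was lower there, at 102 and 37.6 CPM (0.367, 0.290 to 0.462). Hes1 was higher in TP in cortex-like cells (166 and 238 CPM, ratio 1.43, 1.31 to 1.56), in IRS-like cells (145 and 202 CPM, 1.39, 1.30 to 1.47) and in medulla and companion-like cells (101 and 122 CPM, 1.21, 1.03 to 1.41). Each of the 3 cortex-like clusters had a Hes1 ratio above 1, from 1.10 (0.93 to 1.31) to 1.75 (1.44 to 2.12), and each of the 3 IRS-like clusters one from 1.18 to 1.36. The IRS-like class ratio lies above all of its clusters because their mix differed, with cluster 25 holding 381 of 5445 cells in Con and 278 of 1089 in TP. Notch2 was higher in TP in IRS-like cells (270 and 350 CPM, 1.30, 1.24 to 1.36), and this lay in clusters 2 (308 and 467 CPM, 1.52, 1.41 to 1.63) and 15 (174 and 225 CPM, 1.29) but not in cluster 25 (360 and 357 CPM, 0.99, 0.91 to 1.08). Jag2 was lower in IRS-like cells, at 15.1 and 9.24 CPM (0.612, 0.474 to 0.785). Suprabasal transcripts moved with these values: the summed level of 5 IFE suprabasal markers was 2039 CPM in Con and 11164 CPM in TP in IRS-like cells and 1707 and 4786 CPM in cortex-like cells, and their part in the Hes1 and Notch2 ratios was not tested.

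Of the 7 members with at least 50 UMIs in the IRS-like class, 3 had an interval above 1 and 3 an interval below 1, against 18.9% and 43.3% of all genes so counted in the class. With TMM factors within the class the ratios of Notch1 (1.04) and Notch3 (1.02) came to lie above 1, and of these 3 lower members that of Jag2 alone (0.684) stayed below. In the cortex-like class 3 of 7 lay above and 2 of 7 below, against 14.5% and 26.1% of all genes. Medians were close to those of all genes, at 0.943 for the members and 0.927 for all genes in cortex-like cells and at 0.931 and 0.885 in IRS-like cells.

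In the epidermis every member with at least 50 UMIs in the class had a ratio below 1. This was also so in upper hair follicle-like cells (7 members, median 0.674 against 0.922 for all genes) and outer bulge-like cells (6, 0.768 against 0.949). Intervals lay below 1 for 4 of 7 and 4 of 6 members and above 1 for 0, against 26.4% and 18.9% of all genes below and 12.2% and 11.6% above. With TMM factors within the class, Notch2 (1.09) and Notch3 (1.04) came to lie above 1 in upper hair follicle-like cells. Notch2 (1.08) and Hes1 (1.01) did so in outer bulge-like cells. In these 2 classes Hes1 had ratios of 0.669 (0.588 to 0.762) and 0.914 (0.769 to 1.09). In IFE basal-like cells 6 of 7 members had an interval below 1 and 0 above, against 35.7% and 13.0% of all genes in the class, and the member median was 0.796 against 0.907. The count of 6 depends on the scaling. With TMM factors within the class Notch2 stood at 0.961, Notch3 at 0.910 and Dll1 at 1.04, while Notch1 (0.670), Jag1 (0.808) and Hes1 (0.653) stayed lower. Notch1 was at 145 and 85.1 CPM there (ratio 0.586, 0.540 to 0.636), Hes1 at 59.9 and 34.2 CPM (0.571, 0.502 to 0.650), and Jag2 at 229 and 201 CPM (0.875, 0.824 to 0.929, or 1.00 with TMM factors within the class). Dll1 differed by less than its counting error (27.8 and 25.4 CPM, 0.913, 0.769 to 1.09).

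In IFE suprabasal-like cells all 7 members with at least 50 UMIs had an interval below 1 and 0 above, against 53.9% and 16.5% of all genes, with medians of 0.648 for members and 0.820 for all genes. Notch1 was at 134 and 70.9 CPM (0.531, 0.501 to 0.563), Hes1 at 137 and 88.6 CPM (0.648, 0.612 to 0.685) and Jag1 at 69.0 and 47.9 CPM (0.694, 0.642 to 0.752). Notch2 (0.860) and Notch3 (0.810) stood at 1.11 and 1.05 with TMM factors within this class, so their direction depended on the scaling, while Notch1 (0.687) and Hes1 (0.838) kept theirs. The clusters of this class took different parts of it, with 896 cells in Con and 1644 in TP in cluster 7, led by Clca3a2 and Krt1, 1374 and 1145 in cluster 8, led by Ghr and Il34, and 711 and 1582 in cluster 11, led by Hrnr and Flg2. Within them Notch1 had ratios of 0.563, 0.518 and 0.591, Jag1 of 0.753, 0.737 and 0.716 and Hes1 of 0.550, 0.555 and 0.807, all with intervals below 1. Notch2 and Notch3 had intervals that included 1 in clusters 7 and 8 (Notch2 1.03 and 0.979, Notch3 0.953 and 1.04) and below 1 in cluster 11 (0.876 and 0.773), and Jag2 had ratios of 0.629, 1.07 (0.814 to 1.43) and 0.450. Hes1 thus stood lower in TP in both epidermal classes and higher in TP in the cortex-like and IRS-like classes. The difference between these class ratios was not tested, as there is 1 library per condition. Hair follicle transcripts differed in the same direction as Notch1 in the epidermis: the summed level of 7 IRS marker genes, such as Krt71 and Tchh, was 2209 CPM in Con and 458 CPM in TP in IFE basal-like cells and 1611 and 364 CPM in IFE suprabasal-like cells. Their part in the epidermal ratios was not tested.

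**Figure D4:**
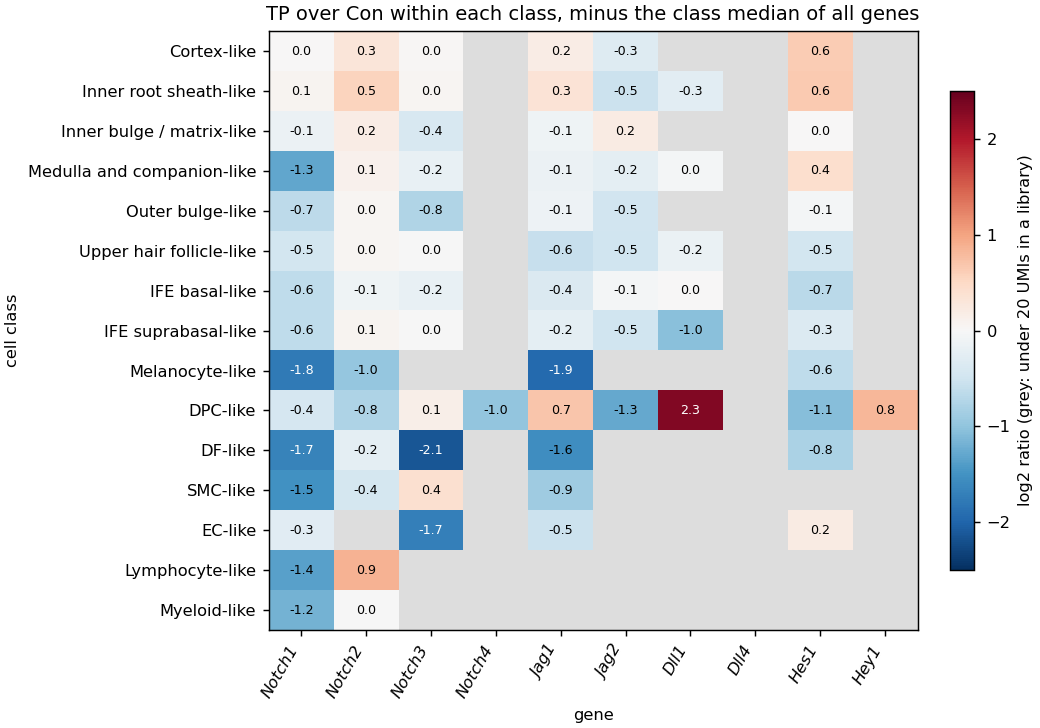
Log2 of the TP over Con ratio of each gene (columns) in each named class (rows) minus the median log2 ratio of all genes of the class, in colour and print, with grey where the gene had under 20 UMIs in a library. Hes1 lies above the class median in cortex-like and IRS-like cells (ratios 1.43 and 1.39) and below it in both epidermal classes (0.571 and 0.648), and in DPC-like cells Dll1 (4.69) and Jag2 (0.388) lie at opposite ends.

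Members with at least 50 UMIs in the class were also lower in TP in several classes outside the epithelium. In DF-like cells 3 of 5 members with at least 50 UMIs passed the fold rule as lower in TP, against 3.81% of all genes there, in lymphocyte-like cells 4 of 5 against 7.37%, and in melanocyte-like cells 3 of 5 against 6.75%. Notch1 was at 90.4 CPM in Con and 23.8 CPM in TP in DF-like cells, at 225 and 77.1 CPM in lymphocyte-like cells and at 163 and 42.7 CPM in melanocyte-like cells. Jag1 was at 134 CPM (100 UMIs) and 17.3 CPM (13 UMIs) in lymphocyte-like cells. This class was made up differently in the 2 libraries: a finer clustering parted it into a T cell group led by Cd3g, with 274 cells in Con and 89 in TP, and a group led by Cd74 and H2-Aa, with 90 and 136. Within the Cd3g group Notch1 was at 231 and 109 CPM (ratio 0.471, 0.299 to 0.718) and Jag1 at 150 and 32.2 CPM (0.214, 0.0895 to 0.443). Within the Cd74 group Notch1 was at 210 and 61.5 CPM (0.293, 0.178 to 0.477) and Jag1 at 90.1 and 9.92 CPM (0.110, 0.0320 to 0.308). Hair follicle transcripts moved with these values. The summed level of the 7 IRS marker genes was 1983 to 3959 CPM in Con and 330 to 619 CPM in TP over the 7 classes outside the epithelium, and was lower in TP in 7 of 7. That of 4 cortex marker genes was 185 to 519 CPM and 37.0 to 82.4 CPM, again lower in 7 of 7. Notch1 was lower in TP in the same 7 of 7 classes, and Jag1, Jag2 and Notch2 in 6 of 7. Notch3, Notch4 and Hes1 were lower in 5 of 7, Dll1 in 4, Hey1 in 3 and Dll4 in 2. Sums of other marker lists also differed over these classes. The dermal papilla list was lower in TP in 7 of 7 and the smooth muscle list in 6 of 7. The endothelial list was lower in 3, the dermal fibroblast list in 2 and the IFE suprabasal list in 1. In IRS-like cells themselves the IRS marker sum was 15925 CPM in Con and 16910 CPM in TP. In droplet libraries the UMIs of a cell can include RNA released by other cells, and no such background was estimated or removed here. The part of these hair follicle transcripts in the low ratios was not tested. With 15% of barcodes removed as doublets the ratios in DF-like cells were lower still, at 0.116 for Notch1 (0.264 otherwise), 0.0421 for Notch3 (0.193), 0.126 for Jag1 (0.288) and 0.215 for Hes1 (0.486). In melanocyte-like cells the ratios came closer to 1, at 0.403 for Notch1 (0.262) and 0.362 for Jag1 (0.233), and that of Hes1 turned from 0.574 to 1.15.

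A few members did not follow that pattern. Notch3 in SMC-like cells was at 652 and 880 CPM (ratio 1.35, 1.10 to 1.67). The summed level of 5 smooth muscle markers was 20522.5 CPM in Con and 29214 CPM in TP in these cells. Its part in the Notch3 ratio was not tested. Dll4 in EC-like cells was at 25.7 and 56.4 CPM (2.19, 1.04 to 5.15), on 9 and 39 UMIs. Notch2 in lymphocyte-like cells was at 105 and 167 CPM (1.602, 1.20 to 2.15), but in the finer clustering it was at 82.4 and 56.3 CPM in the Cd3g group (45 and 14 UMIs) and at 165 and 222 CPM in the Cd74 group (33 and 112 UMIs). Neither group had an interval that excluded 1 (0.683, 0.346 to 1.27, and 1.35, 0.906 to 2.05), and the second gave most of the Notch2 UMIs in TP.

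In the DPC-like class the ratios of the 9 members with at least 50 UMIs ran from 0.388 for Jag2 to 4.69 for Dll1. Of these 9, 3 had an interval above 1 and 5 below, against 21.7% and 34.2% of all genes in the class, and the member median was 0.700 against 0.936. Those above were Dll1 (2.17 CPM in Con and 10.2 CPM in TP, 25 and 85 UMIs, ratio 4.69, 2.97 to 7.64), Hey1 (17.1 and 28.4 CPM, 1.66, 1.37 to 2.01) and Jag1 (85.6 and 129 CPM, 1.51, 1.38 to 1.65). Those below were Jag2 (16.7 and 6.47 CPM, 0.388), Hes1 (42.4 and 18.9 CPM, 0.447, 0.371 to 0.536), Notch4 (25.7 and 12.1 CPM, 0.472, 0.373 to 0.593), Notch2 (79.8 and 43.9 CPM, 0.549) and Notch1 (94.3 and 66.0 CPM, 0.700). Notch3 was at 41.0 and 42.5 CPM (1.04, 0.901 to 1.19). Hes1 and Hey1 thus lay on opposite sides of 1 in the same class. The Dll1 ratio was 8.97 when 15% of barcodes were removed as doublets, and with cells thinned to 1000 UMIs the Notch4 ratio was 0.253.

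The mix of clusters within the DPC-like class differed between the 2 libraries. Cluster 10, led by Ndnf, had 2153 cells in Con and 284 in TP, cluster 14, led by Fgf14 and Sostdc1, had 1563 and 524, and cluster 23, led by Clstn2, a and Vip, had 175 and 491. Each member was therefore also read within clusters.

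In TP the Dll1 UMIs of the class lay mainly in cluster 23. In Con the Dll1 level was low in every cluster, and most of its UMIs lay in clusters 10 and 14, which held most of the Con cells. Cluster 10 held 13 UMIs in Con (2.504 CPM) and 3 in TP (2.45 CPM), and cluster 14 held 11 (1.96 CPM) and 8 (2.35 CPM). Cluster 23 held 1 UMI in Con (1.42 CPM) and 74 UMIs in TP (19.9 CPM), a ratio of 14.0 with an interval from 2.43 to 559. A Dll1 UMI was found in 1 of 175 Con cells (0.571%, 0.0145 to 3.14) and in 58 of 491 TP cells (11.8%, 9.09 to 15.0). After thinning the counts were 0 of 175, which allows a share of up to 1.71%, and 11 of 490 (2.24%, 1.13 to 3.98). The summed level of the 4 IFE basal markers, the class in which Dll1 was highest, was 368 CPM in Con and 403 CPM in TP in this cluster. Other marker sums there differed more, at 1418 and 2658 CPM for the IFE suprabasal list, 1415 and 297 CPM for the IRS list and 486 and 213 CPM for the 4 cycling markers, and their part in the Dll1 values was not tested.

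Hey1 was at 12.1 CPM in Con and 19.6 CPM in TP in cluster 10, at 19.98 and 20.3 CPM in cluster 14 and at 31.3 and 38.7 CPM in cluster 23. The order of the clusters was the same in both libraries, and the cluster with the highest Hey1 was the one that held more cells in TP. Within clusters each Hey1 interval included 1, from 1.02 (0.741 to 1.38) in cluster 14 to 1.61 (0.965 to 2.62) in cluster 10. Jag1 was at 92.3 CPM in Con and 93.1 CPM in TP in cluster 10 (ratio 1.01, 0.815 to 1.24), at 76.5 and 86.2 CPM in cluster 14 (1.13, 0.968 to 1.31) and at 108 and 180 CPM in cluster 23 (1.67, 1.31 to 2.14).

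Hes1 was at 50.9 and 28.6 CPM in cluster 10 (0.562, 0.383 to 0.801), at 36.7 and 18.2 CPM in cluster 14 (0.496, 0.367 to 0.662) and at 24.2 and 16.4 CPM in cluster 23 (0.677, 0.390 to 1.24). Jag2 had ratios of 0.514, 0.466 and 0.424 in clusters 10, 14 and 23, the last on 8 and 18 UMIs with an interval that included 1. Notch2 had ratios of 0.833 (0.648 to 1.06), 0.564 (0.468 to 0.676) and 0.668 (0.456 to 1.00). Notch1 was lower in TP in clusters 10 (0.543, 0.422 to 0.691) and 14 (0.564, 0.465 to 0.680), and in cluster 23 its ratio was 1.12 (0.838 to 1.52). Notch3, at 1.04 in the class, had ratios of 0.654 (0.439 to 0.946), 0.902 (0.721 to 1.12) and 1.52 (0.995 to 2.44). IRS and cycling markers were lower in TP in the same clusters: the IRS sum was 2539 and 685 CPM in cluster 10 and 1540 and 336 CPM in cluster 14, and the cycling sum 784 and 297 CPM and 483 and 124 CPM. Their part in these ratios was not tested.

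Notch4 was a gene of cluster 14, at 48.3 CPM in Con (271 UMIs) and 25.004 CPM in TP (85 UMIs). It was found in 212 of 1563 Con cells (13.6%) and in 54 of 524 TP cells (10.3%), and after thinning in 5.45% (4.37 to 6.69) and 1.53% (0.663 to 2.99). Endothelial marker genes were near absent from that cluster, with a sum of 11.1 and 6.47 CPM against 2521 and 2490 CPM in EC-like cells, while the 6 dermal papilla markers summed to 11068 CPM in Con and 8681 CPM in TP there.

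**Figure D5:**
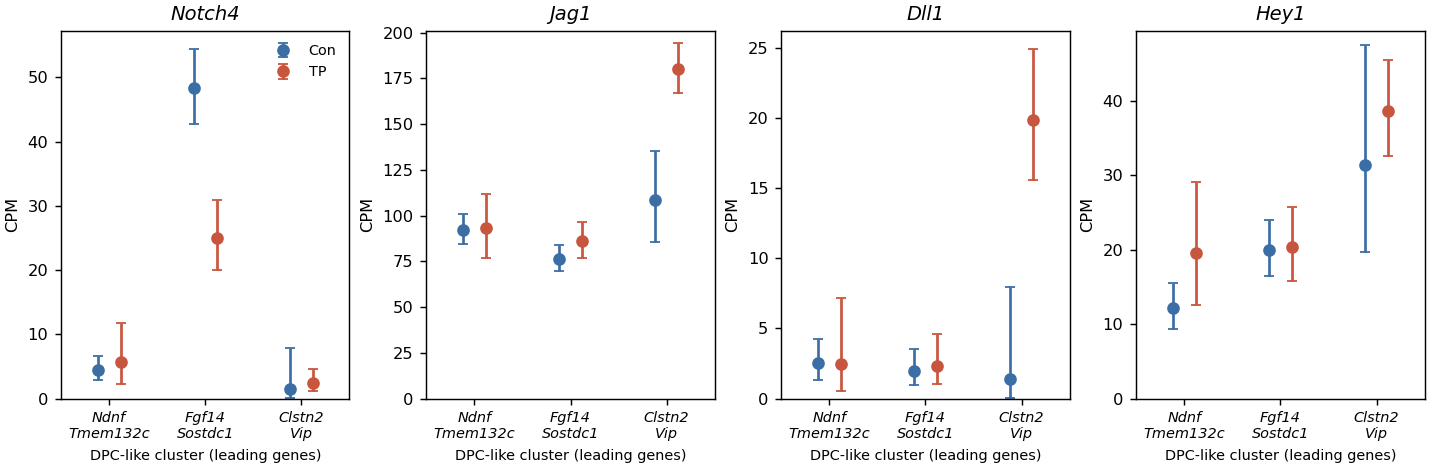
Levels (CPM) of Notch4, Jag1, Dll1 and Hey1 in the 3 DPC-like clusters, named on the axis by their leading genes, in Con and TP, with exact Poisson 95% intervals for counting error. Notch4 lies in cluster 14 (48.3 and 25.004 CPM), and Dll1 in cluster 23 stands at 1.42 CPM in Con and 19.9 CPM in TP.

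The 41 other genes of the pathway, from a fixed list of ligands, glycosyltransferases, proteases, nuclear cofactors, further targets and genes of receptor traffic and turnover, gave 0 genes past the fold rule in either direction over all kept cells, against the 1.68% higher and 0.808% lower of all genes above. Their ratios lay above 1 for 17 and below 1 for 24. All 5 nuclear genes and all 6 further targets lay below 1, and 3 of 9 proteases did, against 65.5% of all genes. With TMM factors 3 of 5, 4 of 6 and 2 of 9 lay below 1, against 48.8% of all genes. Without the offset Neurl3, a ubiquitin ligase gene (6.64 and 15.5 CPM, 2.33, 2.14 to 2.54), was past 2-fold as higher and Heyl, a relative of Hey1 (14.5 and 6.54 CPM, 0.450, 0.414 to 0.489), as lower. Of all genes, 8.01% were past 2-fold as higher and 10.6% as lower without the offset. Neither Neurl3 nor Heyl was past it with the cluster shares of Con or of TP in both libraries, which gave 1.21 and 1.04 for Neurl3 and 0.848 and 0.648 for Heyl. By role, the genes with the most UMIs were Dlk2, a Delta-like relative (3.84 CPM in Con and 6.66 CPM in TP, ratio 1.73), Poglut1, which adds glucose to Notch (36.9 and 24.3 CPM, 0.660), and Adam10, an ADAM protease (184 and 126 CPM, 0.686). Maml3, a Mastermind-like coactivator, was at 944 and 562 CPM (0.596), Nrarp, a feedback target, at 43.9 and 40.4 CPM (0.921, or 1.10 with TMM factors) and Numb, which opposes Notch, at 152 and 120 CPM (0.788). Hey2, the relative of Hey1, was highest in DPC-like cells too, at 105 CPM in Con and 173 CPM in TP. Dlk2 was highest in IFE basal-like cells, at 28.8 and 35.7 CPM, as Jag2 and Dll1 were.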

How the data were processed

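The libraries were made with the 10x GEM-X 3′ chemistry, and the deposited UMI counts per gene and cell barcode were written by the authors with Cell Ranger 8.0.1 on mm10, as whole numbers without normalization. Barcodes with 200 to 8000 genes and at most 10% mitochondrial UMIs were kept. In each library the 7.5% of barcodes with most artificial doublets among their neighbours were removed, by a method rewritten after DoubletFinder, which left 39076 Con and 18542 TP cells. Counts were integrated with Seurat 5.3.0 (reciprocal PCA, 2000 variable genes, 30 components, R 4.3.3) and clustered by the Louvain method at resolution 1, with the 10 members and 41 other Notch pathway genes kept out of the variable genes. Clusters were named "-like" from fixed marker lists, by a scoring rule (mean scaled marker level of at least 1.25 and a lead of 0.25 over the next class, at least 3 markers detected) chosen after the clusters had been seen. The lymphocyte-like cluster was also led by Cd74, and the DF-like cluster scored next as Schwann cells.

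UMIs were summed per class and library and given as counts per 1000000 UMIs (CPM). With 1 library per condition no test was run. Levels have exact Poisson intervals, shares of cells Clopper-Pearson intervals and ratios exact conditional binomial intervals. All are at 95% and for counting error alone (Python 3.11.15, scipy 1.17.1). Of these, only the ratio intervals were checked on simulated data. A share of 0 is given with the limit of 3 counts. For shares, each cell was thinned to 1000 UMIs and shallower cells (5360 in Con and 820 in TP) were left out. TMM factors came from edgeR 4.0.16. The fold rule, with the study's threshold and an offset chosen here, was a difference of at least 1 in log2(counts per 10000 + 0.1) over genes with at least 50 UMIs. The members and gene lists were chosen with earlier results of these data known. Named beyond the members were, by a fixed rule, pathway genes past the fold, the gene with the most UMIs of each role, and the genes of highest correlation with each member (at least 200 UMIs, classes of at least 50 cells); Hey2, Neurl3, Heyl and the highest class of Dlk2 were chosen after their values were seen.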

Additional observations from a re-analysis of the deposited data

How the results depend on the processing

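No paired analysis was possible because each condition is 1 pooled library. Of the 10 members, 1 was past the fold of 2 as lower in TP with doublets kept, with all deposited barcodes, with cells of at least 1000 UMIs and with cells thinned to 1000 UMIs, and 0 were past it with the TMM factor, with the cluster shares of Con in both libraries and with those of TP. No member was past it as higher under any of these. Of all genes, 0.0227% were past it as lower and 0.301% as higher with the cluster shares of Con, and 0.0227% and 0.279% with those of TP. By their intervals 8 members were below 1 and 0 above, and with TMM factors, a count added after seeing the data, 5 and 3. Without the offset, an alternative chosen after seeing the data, 2 members (Notch1, Notch4) were lower, 1 with TMM factors and 0 with either set of cluster shares; of the other pathway genes 1 was higher (Neurl3) and 1 lower (Heyl), and with TMM factors 2 were higher (Neurl3, Dlk2) and 0 lower; with the cluster shares of Con and of TP the ratios were 1.21 and 1.04 for Neurl3, 1.19 and 1.15 for Dlk2 and 0.848 and 0.648 for Heyl. Of all genes, 8.01% were at least 2-fold higher and 10.6% lower without the offset. With the offset and at a fold of 1.5, 1 of the other pathway genes was higher (Neurl3) and 1 lower (Maml3), against 0 and 0 at a fold of 2. The share of all genes was not counted at a fold of 1.5, nor without the offset under TMM factors or cluster shares. The class of highest level stayed the same for 10 members at clustering resolution 0.5 and for 7 at resolution 2, where Notch4 (DPC-like), Jag2 (medulla and companion-like) and Dll4 (outer bulge-like) changed; there the EC-like class had fewer than 50 cells in TP and was left out. Of 83 ratios within classes, 13 moved by over 1.5 times with 15% of barcodes removed as doublets, 10 with thinned cells and 0 with TMM factors, and 5, 8 and 12 crossed 1. The ratio of Notch3 in EC-like cells, 0.301 (120 and 36.1 CPM, from 42 and 25 UMIs), turned to 1.67 with 15% of barcodes removed, and the cause was not tested. The summed level of 5 smooth muscle markers in EC-like cells was 589 CPM in Con and 107 CPM in TP, and its part in that ratio was not tested. Over all kept cells, thinning moved the ratios of Jag2, Dll1 and Hey1 above 1, to 1.12, 1.07 and 1.23, and that of Dll4 to 2.85. Depth limits sparse values: Notch4 in EC-like cells rests on 14 and 23 UMIs and Dll4 there on 9 and 39.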

Other observations

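An unnamed cluster led by Gask1b, Creb5 and Fzd5 held 3983 cells in Con and 229 in TP, with Hes1 at 144 CPM in Con and 134 CPM in TP and Jag1 at 113 and 99.6 CPM. Another unnamed cluster (cluster 6) held Jag2 at 212 and 209 CPM, in the range of the IFE basal-like class, and gave 13.7% of all Jag2 UMIs in Con and 3.71% in TP.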
